A study of Mus musculus with 11 samples.

Results

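The Kdm4 genes (formerly Jmjd2) encode histone demethylases, and their RNA was followed here in mouse leukaemia cells in which Kdm4a, Kdm4b and Kdm4c could be deleted. The family was taken as all probes whose RefSeq accession belongs to Kdm4a, Kdm4b, Kdm4c or Kdm4d, each probe on its own, which gave 5 of the 55681 probes on the array: 2 for Kdm4a and 1 each for Kdm4b, Kdm4c and Kdm4d. Of these, 4 were well above the local background on at least 3 of the 11 arrays and entered the test across all 34273 such probes. The Kdm4d probe did not.

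Kdm4 proteins are JmjC-domain dioxygenases that use iron, 2-oxoglutarate and oxygen to remove methyl groups from lysines of the histone H3 tail. Kdm4a, Kdm4b and Kdm4c act on trimethylated and dimethylated lysine 9, a mark of silent chromatin, and on lysine 36, a mark laid down over transcribed gene bodies. They also carry PHD and Tudor domains, and the Tudor domains of human KDM4A bind methylated histones. Kdm4d lacks these domains, acts on lysine 9 and is known mainly from the testis.

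RNA came from granulocyte-macrophage progenitors transformed with the MLL-AF9 fusion (L-GMP) on a C57BL/6 background, with the genotype Jmjd2a/b/cf/f;Rosa26::CreERT2, and grown in 20% fetal bovine serum with IL-3 at 10 ng/ml. All groups carried floxed Kdm4a, Kdm4b and Kdm4c alleles together with a tamoxifen-activated Cre at the broadly expressed Rosa26 locus. The 0 h group (4 arrays) had no 4-hydroxytamoxifen, while the 48 h group (4 arrays) and the 96 h group (3 arrays) were grown with 500 nM of it to activate CreERT2. The series names 4 such cell lines made from leukaemic mice, but the labels do not say which array came from which line, so p-values measure the spread between these arrays. No treated cells without floxed alleles and no untreated cells at the later times are among the arrays, so deletion, the drug and time in culture cannot be told apart.

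Levels are given as scaled log2 signal, which is log2 of the scanner's background-subtracted signal minus the 75th percentile of that array. That percentile lay at 148 to 203 intensity units at 0 h, 108 to 147 at 48 h and 228 to 294 at 96 h. The 96 h arrays were on a slide of their own, so slide and time cannot be told apart for the 96 h comparisons, while the 0 h and 48 h arrays shared a slide. All 9 granulocyte-macrophage progenitor markers and all 3 MLL-AF9 programme genes examined (Hoxa9, Hoxa10 and Meis1) were well above background on all 11 arrays. Of the markers of other cells, 1 of 3 B cell, 2 of 3 T cell, 1 of 3 erythroid, 3 of 3 megakaryocyte and 1 of 3 stromal genes were also above background on all 11, so those markers were not absent. Ms4a1, a defining gene of B cells, was well above background on 0 of the 11 arrays, and Cd3g of T cells on 1.

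Some of the marker genes also moved with time. At 48 h versus 0 h, 2 of 9 progenitor markers were called higher, 2 of 3 MLL-AF9 programme genes lower, 1 of 2 tested T cell genes lower and 1 of 3 megakaryocyte genes higher. At 96 h versus 0 h, the calls were 2 progenitor and 1 megakaryocyte gene higher and 1 T cell gene lower. Over all tested probes, 9.17% were called higher and 7.14% lower at 48 h, and 5.49% and 2.83% at 96 h, versus 0 h. The B cell, erythroid and stromal genes tested (2, 2 and 3) had 0 calls in limma. Mpo, the myeloperoxidase of neutrophil granules, had scaled log2 signals of 3.84 to 4.80 at 48 h and 4.77 to 5.44 at 96 h, against -1.54 to 1.08 at 0 h. Its log2 difference was 4.33 at 48 h and 5.18 at 96 h versus 0 h (limma adjusted p = 0.0023 and 0.0030), without overlap.

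Ms4a3, another granulocyte-macrophage progenitor gene, was higher by 1.74 and 1.88 log2 units in the same comparisons (limma adjusted p = 0.023 and 0.036), with calls lost on leaving out 1 array in 4 and 7 of the 11 cases. Hoxa9 and Meis1, 2 of the 3 homeobox genes listed for the MLL-AF9 programme, differed by -0.62 and -0.64 at 48 h (limma adjusted p = 0.019 and 0.0078). At 96 h they differed by -0.45 and -0.28, where neither passed (0.097 and 0.18). Hoxa10, the third, differed by -0.09 at 48 h and 0.17 at 96 h and was not called (limma adjusted p = 0.74 and 0.57). Lck, a T cell kinase, differed by -1.28 at 48 h (limma adjusted p = 0.0074), and at 96 h by -0.89, which did not pass (0.051). Cd3e, of the T cell receptor complex, differed by -0.53 at 96 h versus 0 h (limma adjusted p = 0.045), a call lost in 10 of the 11 cases of leaving out 1 array, and by -0.90 at 96 h versus 48 h (limma adjusted p = 0.0071), but without scaling between arrays these differences were 0.051 and 0.12. Gp9, a platelet glycoprotein gene, was higher by 1.06 and 1.43 at 48 h and 96 h versus 0 h (limma adjusted p = 0.020 and 0.018), and each call was lost without 1 array (0 h replicate 3 and 96 h replicate 3). With median scaling the 48 h call of Gp9 and the 96 h call of Ms4a3 were lost (adjusted p = 0.077 and 0.051), and with no filter both Ms4a3 calls and those of Hoxa9 at 48 h and Cd3e at 96 h versus 0 h were lost (adjusted p = 0.053 to 0.11).

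Summed over its genes, the linear scaled signal of the progenitor list was 1312 to 1409 at 48 h and 1234 to 1293 at 96 h, against 881 to 1143 at 0 h. This sum rests mostly on its brightest gene, Ctsg, with a mean scaled log2 signal of 9.63 at 0 h. Ctsg differed by 0.22 at 48 h and by -0.04 at 96 h versus 0 h and was not called. At an unadjusted limma p under 0.05, 5 of the 9 progenitor genes were higher and 2 lower at 48 h versus 0 h. The lower genes were Kit (-0.50) and Cebpa (-0.33). The megakaryocyte sum was 2.02 to 3.63 at 48 h and 2.22 to 3.19 at 96 h, against 0.577 to 1.72 at 0 h. The MLL-AF9 programme sum was 26.2 to 32.3 at 48 h and 34.7 to 40.3 at 96 h, against 39.6 to 49.0 at 0 h. That sum rests mostly on Meis1, with a mean scaled log2 signal of 5.17 at 0 h. The T cell sum was 10.6 to 13.0 at 48 h and 8.06 to 12.4 at 96 h, against 14.3 to 19.1 at 0 h. Its tested genes went opposite ways at 48 h versus 0 h. Lck differed by -1.28, while Cd3e was 0.37 higher without overlap and was not called (limma adjusted p = 0.078). The B cell, erythroid and stromal sums stayed at or below 1.80 at every time and their groups overlapped. The part of these marker changes in the Kdm4 and other results below was not tested.

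Kdm4b and Kdm4c, 2 of the 3 floxed genes, fell furthest, and Kdm4a fell less. The remaining signal was 3.23% of the 0 h level for Kdm4c at 48 h, 10.1% for Kdm4b and 33.1% for the brighter Kdm4a probe. At 96 h it was 4.12%, 10.5% and 43.5% for the same 3 probes. The labels do not give the deleted exons and the probes were not placed relative to them, so a probe outside the deleted part would not report deletion. In bulk RNA, fewer cells with the transcript and less transcript per cell cannot be told apart.

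Kdm4c, the family member also known as Gasc1 for its amplification in human squamous carcinoma, was read by the probe A_55_P2053206. Its scaled log2 signal was 1.06, 0.65, 1.18 and 0.87 on the 4 arrays at 0 h. It was -3.91, -3.67, -4.04 and -4.43 on the 4 arrays at 48 h, and -3.57, -3.58 and -3.83 on the 3 arrays at 96 h. Every treated array lay below every untreated array, and the gap between the nearest arrays was 4.32 log2 units at 48 h. The log2 difference was -4.95 for 48 h versus 0 h (SE 0.17, n = 4 and 4, adjusted p = 8.6e-07, limma over all probes). For 96 h versus 0 h it was -4.60 (SE 0.19, n = 3 and 4, limma adjusted p = 3.9e-06).

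Among all 34273 probes, the Kdm4c probe had the second-lowest log2 difference at 48 h and the third-lowest at 96 h. The 95% interval of the remaining level was 2.47% to 4.22% at 48 h and 3.09% to 5.50% at 96 h. The 48 h values came close to what the array could measure, since processed signals were 5.02 to 11.6 units at 48 h, against 319 to 348 units at 0 h. At 48 h the probe was well above background on 2 of 4 arrays and the scanner's own error averaged 22.5% of the signal, while at 96 h it was above background on 3 of 3. The percentage therefore rests on how background was handled. It was 16.7% at 48 h after a normexp correction with an offset of 50, and 5.43% with an offset of 1. The offset is added to every signal, so by construction a larger offset raises a low percentage. The authors' deposited table, whose values match the correction with an offset of 50 almost exactly, gave 16.1%. Without scaling between arrays the level was 2.38% at 48 h and 6.18% at 96 h.

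Kdm4b, an H3 lysine 9 demethylase that is hypoxia-inducible and oestrogen-receptor-linked in human cells, was read by the probe A_55_P2028064. Its scaled log2 signal was 1.56, 1.42, 1.58 and 1.56 on the 0 h arrays. On the 48 h arrays it was -1.62, -1.77, -1.93 and -1.76, and on the 96 h arrays -1.91, -1.65 and -1.58. The untreated arrays lay within 0.16 log2 units of each other and the treated arrays lay at least 3.0 units below them. This probe was well above background on all 11 arrays.

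The Kdm4b log2 difference was -3.30 for 48 h versus 0 h (SE 0.11, n = 4 and 4, limma adjusted p = 8.2e-07) and -3.25 for 96 h versus 0 h (SE 0.12, n = 3 and 4, limma adjusted p = 2.1e-06). The p-value of this probe ranked 1 among all probes in both comparisons. Its fall was the 24th largest at 48 h and the 14th largest at 96 h. The remaining level had a 95% interval of 8.59% to 12% at 48 h and of 8.81% to 12.6% at 96 h. With the normexp correction it was 20.3% at both times, and the authors' deposited table gave 19.7% at 48 h. Without scaling between arrays it was 7.47% at 48 h and 15.8% at 96 h.

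**Figure D1:**
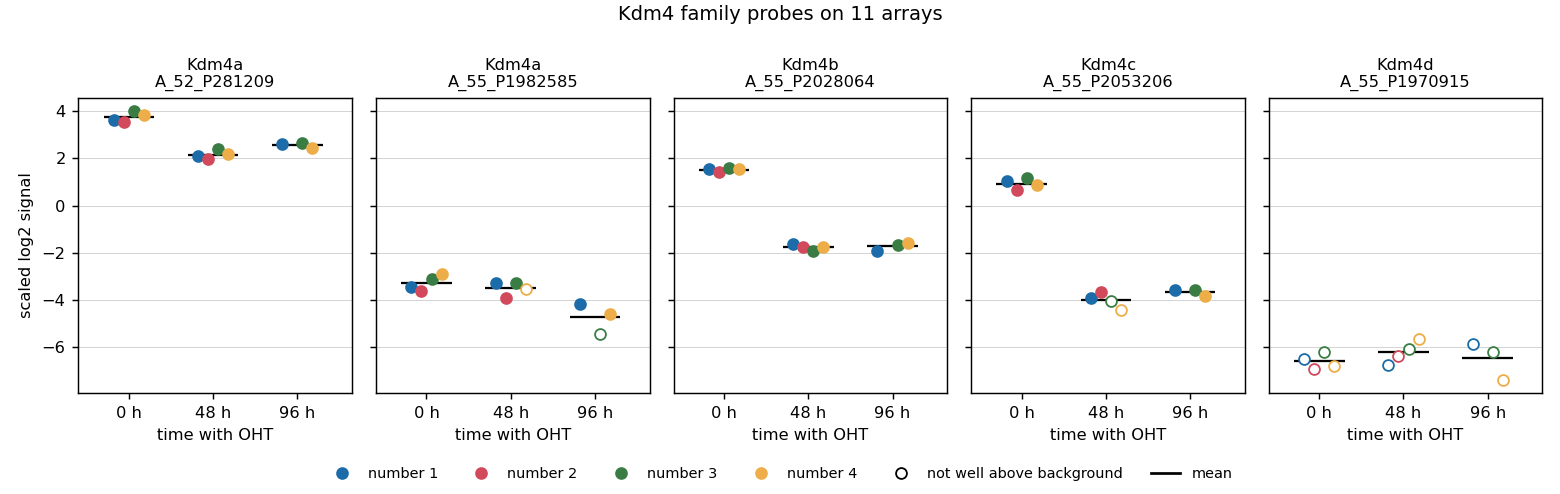
Scaled log2 signal (vertical axis) of each of the 5 Kdm4 probes on the 11 arrays at 0, 48 and 96 h of 4-hydroxytamoxifen (OHT), with 1 point per array coloured by the number in its file name, open points where the probe was not well above background and a bar at the mean. The 48 h and 96 h arrays of Kdm4b, Kdm4c and the brighter Kdm4a probe lie below all 0 h arrays, and all 11 Kdm4d points are open.

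Kdm4a, a partner of the NCoR co-repressor in human cells, had 2 probes that did not give the same course. The brighter probe, A_52_P281209, had scaled log2 signals of 3.64, 3.55, 4.00 and 3.85 on the 0 h arrays. At 48 h they were 2.09, 1.97, 2.39 and 2.20, and at 96 h 2.60, 2.64 and 2.43. The 3 times did not overlap, with 48 h lowest and 96 h between 48 h and 0 h. The log2 difference was -1.60 for 48 h versus 0 h (SE 0.13, limma adjusted p = 0.00095, n = 4 and 4) and -1.20 for 96 h versus 0 h (SE 0.14, limma adjusted p = 0.0044, n = 3 and 4).

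Between the later times this probe differed by 0.40 for 96 h versus 48 h (SE 0.14), which did not pass adjustment in limma (adjusted p = 0.10). The 95% interval of the remaining level was 27.0% to 40.5% at 48 h and 35% to 54.1% at 96 h. The signal stayed far above background at every time, with 499 to 662 processed units at 48 h and 2083 to 2671 at 0 h. Handling of background moved its values little, to 36.2% at 48 h and 46.1% at 96 h with the normexp correction. Scaling moved them more. With median scaling the level was 28.3% at 48 h and 33.4% at 96 h, and without scaling between arrays 24.4% and 65.2%. All but the first of these lay outside the intervals.

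The dimmer Kdm4a probe, A_55_P1982585, had scaled log2 signals of -3.46, -3.63, -3.11 and -2.88 at 0 h. It gave -3.27, -3.93, -3.29 and -3.53 at 48 h, and -4.19, -5.44 and -4.58 at 96 h. The 48 h values overlapped the 0 h values and all 96 h values lay below both. It was well above background on 4 of 4 arrays at 0 h, on 3 of 4 at 48 h and on 2 of 3 at 96 h.

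For this probe the log2 difference was -0.23 for 48 h versus 0 h (SE 0.28, limma adjusted p = 0.59). It was -1.46 for 96 h versus 0 h (SE 0.30, limma adjusted p = 0.022, n = 3 and 4) and -1.23 for 96 h versus 48 h (SE 0.30, limma adjusted p = 0.031, n = 3 and 4). Both calls were fragile. The first was lost on leaving out 0 h replicate 3 or 4 or 96 h replicate 2 or 3 (adjusted p = 0.053 to 0.060), and the second on leaving out 48 h replicate 1, 3 or 4 or 96 h replicate 2 or 3 (adjusted p = 0.064 to 0.077). Both were also lost with no filter (adjusted p = 0.053 and 0.073) and with only the 2 groups compared in the fit (adjusted p = 0.067 and 0.063). The call for 96 h versus 48 h was lost, too, without scaling between arrays (-0.21, adjusted p = 0.57), with normexp at an offset of 1 (-0.47, adjusted p = 0.11) and in the authors' deposited table (-0.12, adjusted p = 0.25). With the normexp correction the differences shrank to -0.25 (adjusted p = 0.031) and -0.12 (adjusted p = 0.25).

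The brighter minus the dimmer Kdm4a signal, taken within each array, was compared after the values had been seen. It changed by -1.37 for 48 h versus 0 h without overlap (exact permutation test, 2-sided, p = 0.029, adjusted p = 0.086 over 3 comparisons). For 96 h versus 0 h it changed by 0.26 with overlap (exact permutation p = 0.74). For 96 h versus 48 h it changed by 1.63 without overlap (exact permutation p = 0.057, the smallest possible with 3 and 4 arrays). With so few arrays none of these 3 comparisons could have passed after adjustment. The probes of this gene disagreed on the 48 h level, and which of them reflects Kdm4a RNA was not tested.

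Kdm4d, which is not floxed in these cells, was not well above background on any of the 11 arrays. Its probe A_55_P1970915 gave scaled log2 signals of -6.49, -6.92, -6.20 and -6.79 at 0 h, of -6.75, -6.36, -6.06 and -5.66 at 48 h, and of -5.85, -6.19 and -7.38 at 96 h. These values overlapped at all 3 times. On all 11 arrays they lay below the lowest signal that was well above background, so no fold is given and a change in Kdm4d was not measurable.

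Read against all probes, 3 of the 4 Kdm4 probes tested were called lower at 48 h versus 0 h, where 7.14% of all tested probes were called lower. All 4 were called lower at 96 h versus 0 h, against 2.83% of all tested probes. Only the dimmer Kdm4a probe was called lower at 96 h versus 48 h, against 5.07% of all tested probes. Every array of the later time lay below every earlier array for 9.47% of all tested probes at 48 h versus 0 h, for 8.34% at 96 h versus 0 h and for 12.9% at 96 h versus 48 h, and for 3, 4 and 1 of the 4 Kdm4 probes. The remaining probes gave 96 h versus 48 h differences of 0.40 (Kdm4a), 0.05 (Kdm4b) and 0.35 (Kdm4c), with limma adjusted p of 0.10, 0.80 and 0.26. The median log2 difference over all tested probes was 0.12, 0.12 and 0.04 in the 3 comparisons, and -0.10, -0.26 and -0.12 when arrays were scaled to their medians.

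The deposited files also carry a number from 1 to 4, which is the same as the array's column on the slide but not its row. Arrays with the same number deviated together. Within a number, the brighter Kdm4a probe was left at 32.0% to 34.2% of its 0 h level at 48 h (4 numbers) and at 37.4% to 48.8% at 96 h (3 numbers). Kdm4b was left at 8.73% to 11.1% and at 9.01% to 11.3%. Kdm4c was left at 2.53% to 5.01% and at 3.70% to 4.04%. These 3 probes thus fell on every numbered pair, and the order of the genes was the same in each.

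**Figure D2:**
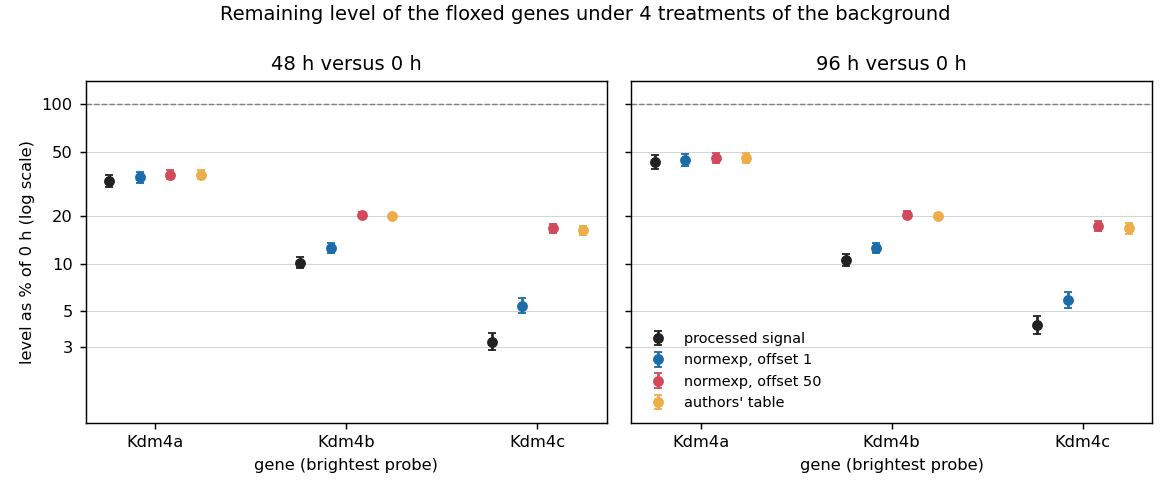
Level of the brightest Kdm4a, Kdm4b and Kdm4c probes at 48 h (left) and 96 h (right) as a percentage of the 0 h level (log axis), computed from the processed signal, from normexp at an offset of 1 or 50 and from the authors' deposited table, with bars of 1 SE. Kdm4a at 48 h stays between 33.1% and 36.2% under all 4 settings, while Kdm4c moves between 3.23% and 16.7%.

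Whether the 3 floxed genes, each read by its brightest probe, fell by unequal amounts was compared with differences taken within each array. The scaling between arrays cannot alter such differences. The dimmer Kdm4a probe, which gave another course, was left out of this comparison. Kdm4a fell less than Kdm4b, by 1.71 log2 units at 48 h versus 0 h and by 2.05 at 96 h versus 0 h. Kdm4a fell less than Kdm4c by 3.36 and 3.40 units, and Kdm4b less than Kdm4c by 1.65 and 1.35 units, at the same times. In all 6 of these differences the arrays of the later time and the 0 h arrays did not overlap. Each reached the smallest p the exact permutation test allows, 0.029 with 4 and 4 arrays and 0.057 with 3 and 4. None passed after adjustment over 9 tests (adjusted p = 0.086). With so few arrays none of the 9 tests could have passed, so the adjusted p-values cannot decide whether the falls were unequal.

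Between 48 h and 96 h the within-array differences changed (96 h minus 48 h) by 0.34 (Kdm4a minus Kdm4b), 0.04 (Kdm4a minus Kdm4c) and -0.30 (Kdm4b minus Kdm4c), with overlap in all 3 (exact permutation adjusted p = 0.22, 0.91 and 0.32). The size of the unequal fall rests on background handling. With the normexp correction at an offset of 50, Kdm4b fell less than Kdm4c by 0.28 units at 48 h and by 0.25 at 96 h, and Kdm4a less than Kdm4b by 0.84 and 1.18. At an offset of 1, the Kdm4b and Kdm4c falls differed by 1.20 units at 48 h.

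**Figure D3:**
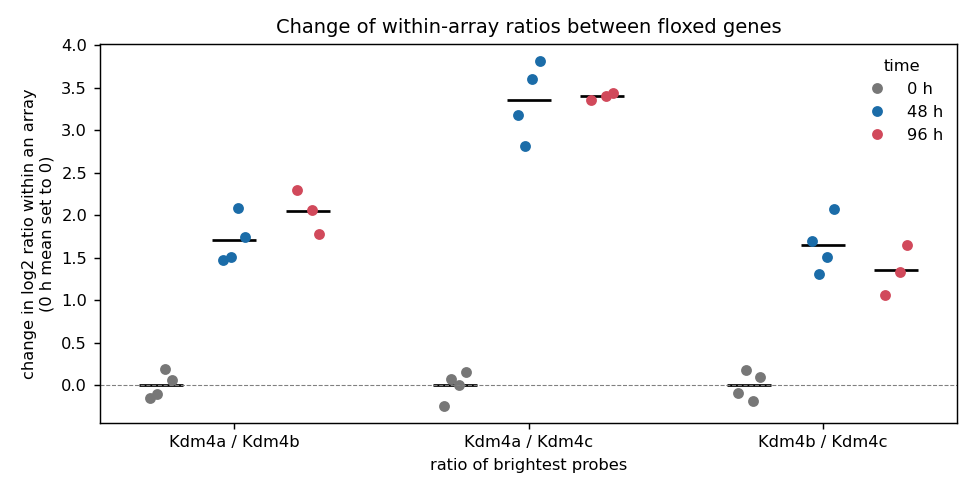
Change in the log2 ratio of the brightest probes of 2 floxed genes within an array (vertical axis, mean at 0 h set to 0), with 1 point per array and a bar at the mean of each time. For all 3 pairs the 48 h and 96 h arrays lie above the 0 h arrays without overlap, and the 48 h and 96 h arrays overlap each other.

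Over the 11 arrays the brightest probes of the floxed genes followed each other, with Pearson r of 0.99 between Kdm4b and Kdm4c, 0.96 between Kdm4a and Kdm4c and 0.95 between Kdm4a and Kdm4b. The 11 points share 3 groups and the scaling of each array, so these values are a description. Among 14996 genes with a symbol, the 3 most like Kdm4a were Tspyl4, Fbxl12 and Chchd5 (r = 0.98 each). Those most like Kdm4b were Yif1b, Rtl6 and Tspyl4 (r = 0.97 each). Tspyl4, Csprs and Rtl6 were most like Kdm4c (r = 0.98 each).

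Tspyl4, a nucleosome assembly protein family gene, thus appeared beside all 3 floxed genes. Its scaled log2 signal was 0.05, -0.02, 0.67 and 0.69 at 0 h, -2.34, -2.13, -2.03 and -2.24 at 48 h, and -1.89, -1.60 and -2.21 at 96 h, with no overlap between 0 h and the later times. Its log2 difference was -2.53 at 48 h versus 0 h and -2.25 at 96 h versus 0 h. Fbxl12, an F-box ubiquitin ligase subunit, fell by 2.45 and 1.83 log2 units in the same comparisons. Yif1b, a membrane trafficking gene, had a closely matched course but a small change of -0.38 and -0.46. These genes were picked for their likeness, so their fall is a description.

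Among other enzymes and readers of H3 lysine 9 and lysine 36 methylation, 37 of the 38 genes listed had a tested probe. At 48 h versus 0 h, 2 were called higher and 3 lower (9.17% and 7.14% of all tested probes), with a list median of -0.15 beside 0.12 over all probes. For 96 h versus 0 h, 3 were higher and 2 lower (5.49% and 2.83% of all probes), with a median of 0.04 beside 0.12. For 96 h versus 48 h, 6 were higher and 0 lower in limma (4.69% and 5.07% of all probes; 11 higher and 3 lower at an unadjusted p under 0.05), with a median of 0.12 beside 0.04. When arrays were scaled to their medians, 0 genes were called higher in each of the 3 comparisons, and with the file-name number as a replicate block 5 were called lower at 48 h versus 0 h.

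Among the 13 other demethylases, read by their brightest probes, 0 passed limma at 48 h versus 0 h (2 higher and 6 lower at an unadjusted p under 0.05), although another probe of the demethylase Phf8 was 1.02 higher and passed. Phf2, a JmjC demethylase of lysine 9, had scaled log2 signals of -0.81, -0.83, -1.01 and -0.84 at 0 h, of -1.73, -1.22, -1.11 and -1.21 at 48 h, and of -0.36, -0.29 and 0.00 at 96 h. It was higher at 96 h versus 48 h by 1.1 (SE 0.16, limma adjusted p = 0.0058, n = 3 and 4). At 96 h versus 0 h the difference was 0.66 (limma adjusted p = 0.035), a call lost on leaving out any 96 h array or 0 h replicate 1, 3 or 4. Jmjd1c, a relative of the lysine 9 demethylase Kdm3a, was higher at 96 h versus 48 h by 0.82 (SE 0.15, limma adjusted p = 0.014).

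Lysine 9 methyltransferases and their partners held 1 gene called higher and 3 lower at 48 h versus 0 h, of 9 tested. Atf7ip, the partner that stabilises the methyltransferase Setdb1, was 2.58, 2.67, 2.52 and 2.25 at 0 h, 1.39, 1.48, 1.49 and 1.1 at 48 h, and 2.00, 2.15 and 2.04 at 96 h in scaled log2 signal. Every 48 h array lay below every array of the other times. It fell by 1.14 at 48 h versus 0 h (SE 0.12, limma adjusted p = 0.0021, n = 4 and 4) and rose by 0.70 at 96 h versus 48 h (SE 0.13, limma adjusted p = 0.015, n = 3 and 4). Setdb1 itself differed by -0.15 at 48 h versus 0 h and did not pass (limma adjusted p = 0.48).

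Suv39h1, which lays down trimethylated lysine 9 in heterochromatin, was the gene called higher at 48 h versus 0 h. Its scaled log2 signal was 0.81, 1.85, 1.51 and 1.54 at 0 h, 2.35, 2.53, 2.54 and 2.51 at 48 h, and 1.43, 2.18 and 1.47 at 96 h. The difference for 48 h versus 0 h was 1.06 (SE 0.23, limma adjusted p = 0.015), with no overlap. Its paralogue Suv39h2 differed the other way, by -0.48 (limma adjusted p = 0.023), but that call was lost on leaving out 0 h replicate 1, 3 or 4 or 48 h replicate 1, 2 or 4. For Suv39h2 and Ehmt1, only 1 of the 2 tested probes was called at 48 h.

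Ehmt1, which with Ehmt2 dimethylates lysine 9, differed by -0.38 at 48 h and by -0.49 at 96 h versus 0 h (limma adjusted p = 0.031 and 0.029). Its other tested probe gave 0.02 and 0.17 in these comparisons and was not called. Each of these calls was lost on leaving out 0 h replicate 1, 3 or 4, and also 48 h replicate 1, 2 or 4 for the first and any 96 h array for the second. Wiz, a zinc finger partner of Ehmt1 and Ehmt2, was 0.51 higher at 96 h versus 48 h (limma adjusted p = 0.040). That call was lost with the file-name number as a replicate block (adjusted p = 0.060) and on leaving out any 96 h array, 48 h replicate 1, 2 or 4, or 0 h replicate 1 or 4.

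Of the 3 HP1 genes, whose proteins bind methylated lysine 9, Cbx5 passed at 48 h versus 0 h with a difference of 0.57 (SE 0.15, limma adjusted p = 0.029). This call was lost on leaving out 0 h replicate 1, 3 or 4 or 48 h replicate 3 or 4. Only 1 of the 2 Cbx5 probes carried it, while the other gave -0.23 and was not called. For the HP1 gene Cbx3, 1 of 2 probes was called higher in the same comparison (0.70), while the brightest gave 0.25 and was not called. Of the 8 lysine 36 methyltransferases, Nsd2, which dimethylates lysine 36, passed at 96 h with 0.78 versus 0 h and 0.61 versus 48 h (limma adjusted p = 0.019 and 0.033). The first was lost on leaving out 96 h replicate 2 or 3, and the second on leaving out any 96 h array or 48 h replicate 1, 2 or 4. Its other probes were called in 0 of 3 cases in the first comparison and in 1 of 3 in the second.

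Within the co-repressor to which human KDM4A binds, Ncor1, its scaffold, was 1.53, 1.97, 1.34 and 1.29 at 0 h, 1.0, 1.48, 1.30 and 1.17 at 48 h, and 2.15, 2.49 and 2.38 at 96 h in scaled log2 signal. Every 96 h array lay above every earlier array. Of its 3 tested probes, 2 were called higher at 96 h versus 0 h, while the third gave -0.34 and was not called. At 96 h versus 48 h, 2 were called higher. At 48 h versus 0 h, 2 of the 3 were called lower and the brightest was not. The difference was 1.11 for 96 h versus 48 h (SE 0.18, limma adjusted p = 0.0088) and 0.81 for 96 h versus 0 h (limma adjusted p = 0.029), the second of which was lost on leaving out any 96 h array or 0 h replicate 1, 3 or 4. Tbl1x, a subunit that recruits the degradation machinery, differed by -0.55 at 96 h versus 0 h (limma adjusted p = 0.030), a call lost without the same arrays. Hdac3, the deacetylase of the complex, differed by 0.15 at 48 h and by -0.002 at 96 h versus 0 h and did not pass.

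**Figure D4:**
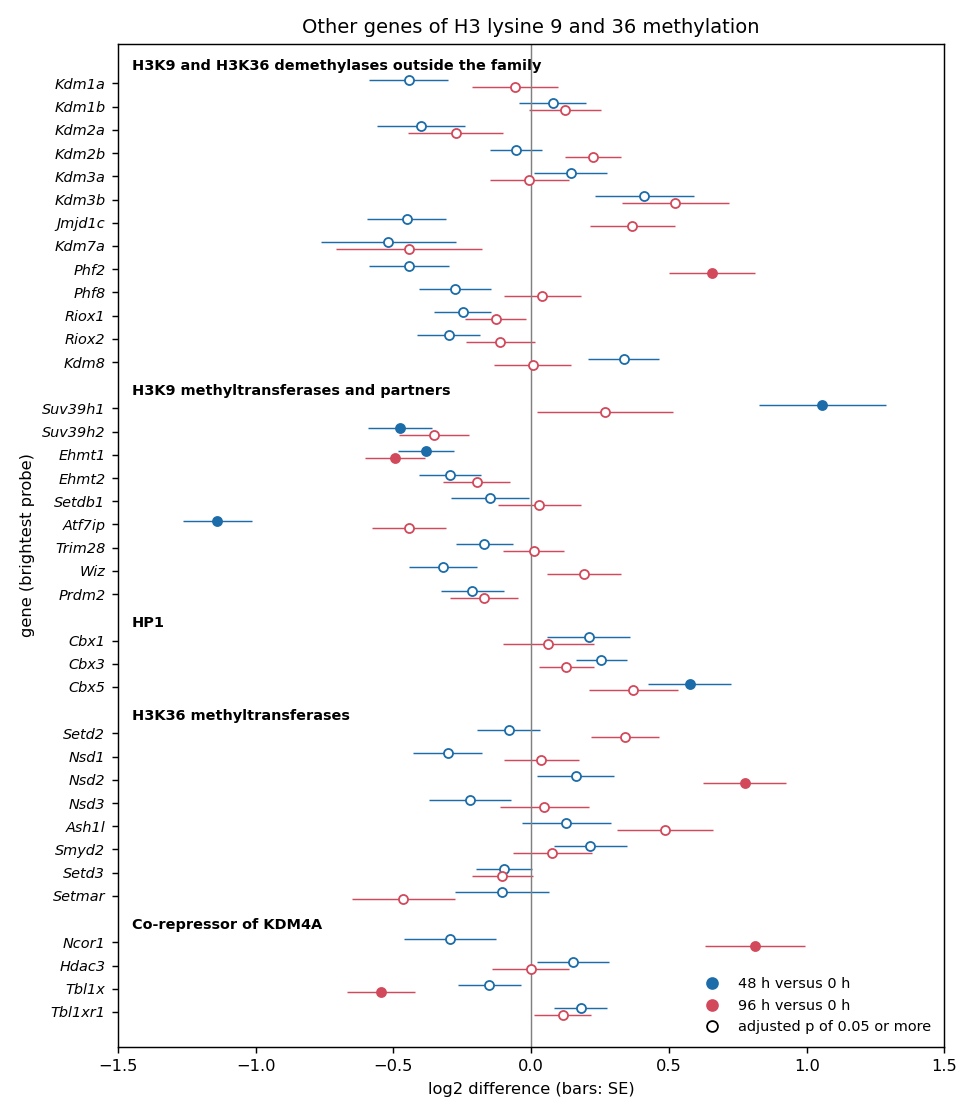
Log2 difference (horizontal axis, bars of 1 SE) of each of the 37 tested list genes for 48 h versus 0 h and 96 h versus 0 h, grouped by role, with filled points for a limma adjusted p under 0.05. The filled points run from -1.14 (Atf7ip at 48 h) to 1.06 (Suv39h1 at 48 h).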

How the data were processed

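RNA of 11 samples was measured on 1-colour (Cy3) Agilent arrays, 1 file per sample, plus a table of the whole series. The deposited processed-signal intensity is, per the file headers, background-subtracted by Agilent Feature Extraction 11.0.1.1 on a design built on mm9, without normalization across arrays. The raw deposited intensity is the median pixel value of spot and local background, and deposited flags are coded 0 or 1. The values in the authors' deposited table are log2, and the submitters' processing notes name limma, whose version is not stated there. Each of its columns correlated at 0.99998 with a normexp correction at an offset of 50 and quantile normalization of the scanner values, uncentred, with medians of 6.17 to 6.19.

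Control and outlier-flagged spots (125 to 194 per array) were left out, no non-control spot was saturated, and spots of a probe were averaged. The main value was log2 processed signal after subtraction of the 75th percentile of each array. Probes were named by accession through a RefSeq table of assembly GRCm38.p6 (27656 with a symbol, 28025 without), and coordinates are left out as array and table use different builds. Probes well above background on at least 3 arrays were tested with limma 3.58.1 in R 4.3.3 (with version 1.17.8 of data.table) on all 11 arrays in 3 groups, 2-sided, with Benjamini-Hochberg adjustment over 34273 probes and a threshold of 0.05. The script was tested on simulated data. Permutation tests used scipy 1.17.1 in Python 3.11.15 (numpy 2.4.6, pandas 2.3.3, matplotlib 3.10.9 for figures). The number of arrays limits the precision.

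The normexp alternative used the median pixel signal, since the mean pixel signal was not among the columns used. Other alternatives changed scaling, filter, block, slide row, array weights, groups in the fit, and left out each array. Named genes were every Kdm4 probe, called list genes (up to 4 per role by size) and the 3 genes most like each floxed gene, with a list gene read by its brightest probe, and called marker genes were added after seeing the data. The members and lists were chosen with earlier results of these data known. Deviations of arrays sharing the number in the deposited file names correlated at 0.11 to 0.33 in every pair. That number was used to pair arrays for the levels within a number and for a replicate block among the alternatives. The main limma fit and the main permutation tests did not use it, so their p-values take no account of pairing. The number equals the column on the slide and cannot be told apart from it.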

Additional observations from a re-analysis of the deposited data

Results flagged for a closer look

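The outlier screen took the Kdm4 probes, called list and marker genes, genes most like the floxed ones and within-array differences between floxed genes. Of the 64 groups of 4 arrays, 4 had an array standing apart from the other 3 (Dixon's gap over range). Chance gives about 1 in 20. Ehmt1 at 0 h was 3.62 on replicate 2, with the others at 3.90. Lck at 0 h was 3.04 on replicate 2, with the others at 3.67 or above. Phf2 at 48 h was -1.73 on replicate 1, with the others between -1.22 and -1.11. Suv39h1 at 48 h was 2.35 on replicate 1, with the others between 2.51 and 2.54. All values are scaled log2 signals.

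The dimmer Kdm4a probe (A_55_P1982585) changed by -1.23 for 96 h versus 48 h, while the brighter probe of the same gene changed by 0.40. The within-array difference between them changed by 1.63 (exact permutation p = 0.057, 2-sided, adjusted p = 0.086 over 3 comparisons). With these numbers of arrays that test could not have passed after adjustment. The dimmer probe was well above background on 2 of the 3 arrays at 96 h and on 3 of the 4 at 48 h.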

How the results depend on the processing

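The 48 h and 96 h calls versus 0 h of Kdm4b, Kdm4c and the brighter Kdm4a probe kept their direction and stayed past the threshold under all alternatives run in which the probe was tested, and the block by file-name number changed no Kdm4 call. For 96 h versus 48 h, Kdm4b was -0.11 with median scaling and between -0.012 and 0.15 on leaving out each array. Without scaling between arrays, an alternative chosen after seeing the data, Kdm4a, Kdm4b and Kdm4c were 1.42, 1.08 and 1.38 at 96 h versus 48 h and passed. Kdm4a minus Kdm4c at 96 h versus 48 h was -0.13 with the file-name number as a replicate block and -0.13 to 0.20 on leaving out each array. The count of Kdm4 probes called lower at 96 h versus 48 h fell to 0 with the normexp correction, the deposited table, no filter, probes above background on all arrays, only the compared groups, no scaling, normexp with an offset of 1, and 0 to 1 on leaving out each array. With the filter on all arrays, which left Kdm4c and the dimmer Kdm4a probe untested, 2 were called lower at 48 h and 2 at 96 h versus 0 h. At 96 h versus 0 h the count was 3 with no filter and with only the compared groups, and 3 to 4 on leaving out each array. List genes called lower numbered 5, 5 and 2 in the 3 comparisons with the normexp correction and with the deposited table. With quantile normalization 5 were lower at 48 h versus 0 h and 1 at 96 h versus 48 h, and with median scaling 5 were lower at 96 h versus 0 h. With no filter 1 was higher and 1 lower at 48 h versus 0 h, and 0 and 0 at 96 h versus 0 h. With the title number as a replicate block, 1 was lower at 96 h versus 0 h. Pairs with a 96 h array under that number correlated at 0.33 and 0.28 for number 1 and at -0.04 to 0.00 for numbers 2 and 3. Without scaling Ehmt1, Tbl1x and Yif1b turned to 0.089, 0.037 and 0.12 at 96 h versus 0 h, Cd3e turned to 0.051 at 96 h versus 0 h and 0.12 at 96 h versus 48 h, and Yif1b passed no longer without 96 h replicate 2 (adjusted p = 0.053, limma). Except where the construction shows it, the cause was not tested. The low signals of Kdm4c, Kdm4d and the dimmer Kdm4a probe limit what background allows to be measured.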
